A study of Mus musculus with 20 samples.

Results

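T follicular regulatory (TFR) cells of Peyer's patches (PP) were compared with TFR cells of immunised peripheral lymph nodes (pLN). The members are the 5 TFR arrays among the 20 single-colour Agilent arrays of the series, found by their source label: 2 from PP, 2 from pLN on day 12 (d12) and 1 from pLN on day 25 (d25) after immunisation. All 5 came from B6.Cg-Foxp3<tm1Mal> mice, a knock-in strain in which an enhanced green fluorescent protein (GFP) reports the Foxp3 locus, of both sexes and 8 to 14 weeks old. The pLN donors had received keyhole limpet hemocyanin with alum under the skin, and the labels state no immunisation for the PP donors. Each array held the RNA of 1 sorted pool from 8 to 15 mice. In both tissues the TFR gate was GFP+ PD1hi without regard to GL7, so the cells were chosen by PD1 protein and by Foxp3 reporter. The other arrays used here are those of Treg cells (GFP+ PD1lo GL7-) and of GL7+ TFH cells (GFP- PD1hi GL7+) of the same tissues and days, with the same array numbers. Arrays are named by tissue and replicate, and values are always given in the order PP replicate 1, PP replicate 2, pLN d12 replicate 1, pLN d12 replicate 2 and pLN d25.

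TFR cells are Foxp3+ regulatory T cells that take on part of the programme of follicular helper (TFH) cells, with the transcription factor Bcl6, the chemokine receptor Cxcr5 and the inhibitory receptor PD1, and enter B-cell follicles, where they restrain the germinal centre reaction. In PP germinal centres are kept up by the gut flora and food antigens, whereas in pLN they form after immunisation. The comparison asks whether TFR cells of a chronic mucosal germinal centre and of an induced peripheral one carry the same transcripts.

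The labels were first set against marker genes. All 8 CD4 T-cell markers (Cd3e and Cd4 among them) and all 7 TFR markers (Foxp3, Cxcr5 and Pdcd1 among them) were detected on all 5 arrays. Markers of other cells were not evenly spread. The 13 B-cell markers summed to 178980 units of normalised intensity on PP replicate 1, against 13529 on PP replicate 2 and 7567 to 9024 on the pLN arrays. The 9 major histocompatibility complex class II genes summed to 654240 on PP replicate 1 and 47042 on PP replicate 2, with 36486 to 50858 in pLN. The 11 epithelial markers summed to 17879 on PP replicate 1 and 2789 on PP replicate 2, and Krt8, Krt19, Krt20, Vil1 and Reg3g were at the floor of 20 on the other 4 TFR arrays. PP replicate 1 therefore carried B-cell and epithelial transcripts that PP replicate 2 carried at or near the pLN level, and the comparisons are given with and without it. Ciita, the class II transactivator, was at 13166 and 12064 on the PP arrays and 505, 762 and 339 on the pLN arrays, high on both PP arrays. The 7 germinal centre B-cell markers include Bcl6 and S1pr2, which follicular T cells transcribe too. Their sum was higher on both PP arrays (68302 and 54317 against 13978 to 24368 in pLN). The sum of the 16 myeloid markers was too (134700 and 177380 against 80493 to 90511). Its brightest members, Siglech, Cst3 and Itgam, were at 103390, 49559 and 20862 on PP replicate 2. Of the 14 myeloid markers tested, 5 were higher on both PP arrays than on every pLN array. Lyz2, Csf1r, Mpeg1, C1qa and C1qb were lower on PP replicate 2 than on every pLN array. The part of these transcripts in the results was not tested.

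**Figure D1:**
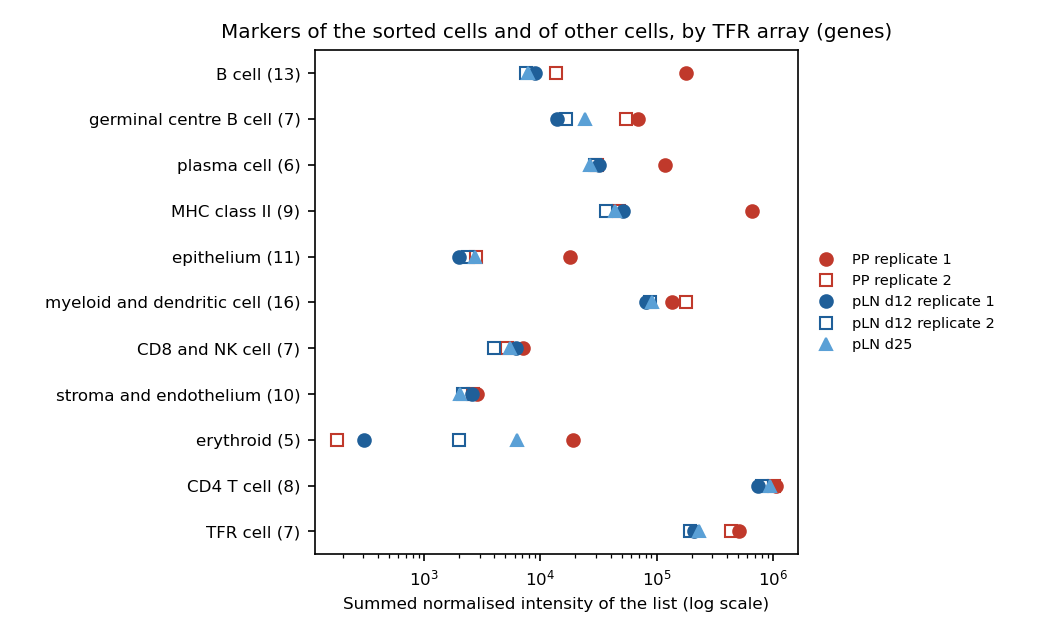
Summed normalised intensity (arbitrary units, log axis) of 11 marker lists on each of the 5 TFR arrays, with the number of genes per list in brackets and 1 point per array. PP replicate 1 stands apart for B-cell, MHC class II, epithelial, plasma-cell and erythroid markers, while the CD4 T-cell markers of all 5 arrays lie between 746320 and 1059100.

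On the TFR arrays 46.3% to 58.0% of probes were detected and none was saturated. The local background had medians of 24 to 268 intensity units and was highest on pLN d12 replicate 2. Each slide held arrays of a single tissue and day, so tissue and slide cannot be told apart, and within-slide values could not be had. The RNA input was 50 ng for replicate 1 of PP and of pLN d12 and 40 ng for the other 3 TFR arrays. Over tested probes, which are not independent replicates, the arrays correlated with r = 0.986 between the pLN d12 replicates, 0.992 between pLN d12 replicate 2 and pLN d25, 0.955 between the PP replicates and 0.930 to 0.964 between tissues.

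Of 14547 genes tested, 1798 (12.4%) differed between PP and pLN by at least 2-fold at an adjusted p under 0.05, of which 958 (6.59%) were higher and 840 (5.77%) lower in PP. Without PP replicate 1 there were 1202 calls (8.26%; 4.44% higher and 3.82% lower), and 1060 genes (59.0% of the 1798) were called both ways in the same direction. Against pLN d12 alone 1756 genes (12.1%) were called, 6.32% higher and 5.75% lower, and against the single pLN d25 array 744 (5.11%), 2.96% higher and 2.16% lower. Of the 22264 tested probes behind these genes, 11.4%, 11.1% and 4.63% were called in the same comparisons. With slide as a random block 1559 genes were called, 1402 of them among the 1798. The median log2 difference over all genes was -0.006. These are bulk values, in which fewer cells of a type and less RNA per cell cannot be told apart.

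The genes that were highest in PP over pLN in TFR cells encode a transcriptional repressor, secreted factors and a gut-homing receptor. Several leading genes of both directions differed between the tissues in Treg and GL7+ TFH cells too, as given with those cells below. Hic1, a zinc finger repressor (probe at chromosome 11, 74978107 to 74978166, mouse assembly mm9), was at 4287 and 6329 on the PP arrays and 40.1, 50.1 and 96.1 on the pLN arrays (log2 difference 6.49, SE 0.26, adjusted p 1.74e-06). Sostdc1, a secreted antagonist of BMP and Wnt ligands, was at 43577 and 31136 on the PP arrays and 1203, 1021 and 1181 on the pLN arrays (log2 difference 5.02, SE 0.73, adjusted p 0.0017). Ccr9, the receptor for the small intestinal chemokine CCL25, was at 2589 and 3483 on the PP arrays and 149, 94.7 and 159 on the pLN arrays (log2 difference 4.52, SE 0.36, adjusted p 7.39e-05). For these 3 genes the lowest PP array lay more than 10-fold above the highest pLN array. Calca, which encodes calcitonin and the neuropeptide CGRP, was at 1359.8 and 6247 on the PP arrays and 50.9, 88.4 and 238 on the pLN arrays (log2 difference 4.83, SE 0.58, adjusted p 0.000663). The surface ADP-ribosyltransferase gene Art2a was at 1920.3 and 4162 on the PP arrays and 57.9, 69.3 and 189 on the pLN arrays (log2 difference 4.95, SE 0.46, adjusted p 0.000182). Both differed between the PP arrays as well, with PP replicate 2 the higher. Asb2, the substrate subunit of a ubiquitin ligase that targets filamins, was at 24054 and 27504 on the PP arrays and 894, 1059.9 and 1179.5 on the pLN arrays (log2 difference 4.63, SE 0.51, adjusted p 0.000421), while another tested probe of Asb2 was not called (11650.5 and 39.6 in PP, 1173, 442 and 52.8 in pLN, adjusted p 0.766) and did not separate the tissues. The orphan receptor gene Gpr153 was at 1110.2 and 1536 on the PP arrays and 37.8, 59.9 and 92.4 on the pLN arrays (log2 difference 4.46, SE 0.27, adjusted p 2.57e-05). Some of the leading genes were not well above background on any pLN array, so that their difference is given as an approximate lower bound. Grtp1, which encodes a TBC-domain protein, was at least 41.4-fold higher in PP (2153 and 2888 on the PP arrays). The proteoglycan gene Spock3 was at least 11.3-fold higher (488 and 945) and the Cdc42 exchange factor gene Fgd5 at least 10.1-fold (546 and 677). Ccdc120 was at least 7.66-fold higher (496 and 429) and the orphan nuclear receptor gene Esrrg at least 7.47-fold (402 and 504). In Treg cells Spock3, Fgd5 and Esrrg were at 612, 641.5 and 464 on the pLN d25 array, so their signal was not absent from pLN. On the Treg pLN d12 arrays they were at 20 and 52.9, 29 and 111.7, and 20 and 78.9. Esrrg lost its call without PP replicate 2 (adjusted p 0.0529).

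The genes lowest in PP were led by Wnt10a, a secreted Wnt ligand (probe at chromosome 1, 74850633 to 74850692). It was at 1746, 1569.5 and 3106 on the pLN arrays and not well above background in PP (35.8 and 22.1). By these undetected values it was 72.6-fold lower in PP, which is not a bound. Fut7, the fucosyltransferase that completes selectin ligands, was at 268 and 343 on the PP arrays and 9934, 10235 and 7312 on the pLN arrays (log2 difference -4.90, SE 0.41, adjusted p 9.67e-05). Zbtb32, a zinc finger repressor of activated lymphocytes, was at 103 and 107.2 on the PP arrays and 3785, 4233 and 2486 on the pLN arrays (log2 difference -5.02, SE 0.54, adjusted p 0.000356). In both cases the PP arrays agreed closely and lay over 20-fold below the lowest pLN array. Lmna, which encodes the nuclear lamins A and C, was at 130.1 and 66.8 on the PP arrays and 3109, 2014 and 2774 on the pLN arrays (log2 difference -4.80, SE 0.38, adjusted p 7.39e-05). Cdkn2a, which encodes the cell cycle inhibitors p16 and ARF, was at 64 and 109.5 on the PP arrays and 2157, 2324 and 1115 on the pLN arrays (log2 difference -4.41, SE 0.48, adjusted p 0.000389). Dnah7a, an axonemal dynein heavy chain gene, was at 75.3 and 293 on the PP arrays and 6435, 8961 and 14572 on the pLN arrays (log2 difference -5.99, SE 0.57, adjusted p 0.000207). Ccl8, a monocyte chemokine (415, 1119.5 and 591 in pLN, at least 27-fold lower in PP), was not well above background on either PP array. The same held for Gzmc, a granzyme gene (484, 513 and 512, at least 20.9-fold) and Trpm6, a magnesium channel gene (664, 722 and 697, at least 28.8-fold). Ccr10, a receptor for skin and mucosal chemokines, was undetected in PP too (34 and 20, against 530.1, 589.5 and 940.4). By these values it was 25.5-fold lower in PP, which is not a bound. Agr3, a protein disulfide isomerase relative, and Galnt14, which starts mucin-type O-glycans, were detected on only 1 PP array, with log2 differences of -5.04 and -4.95. The probes of Art2a, Dnah7a, Gzmc, Ifit3, Oas1a, Ly6a and Ly6c1 lie in families of closely similar copies, so a value may hold the signal of several copies.

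**Figure D2:**
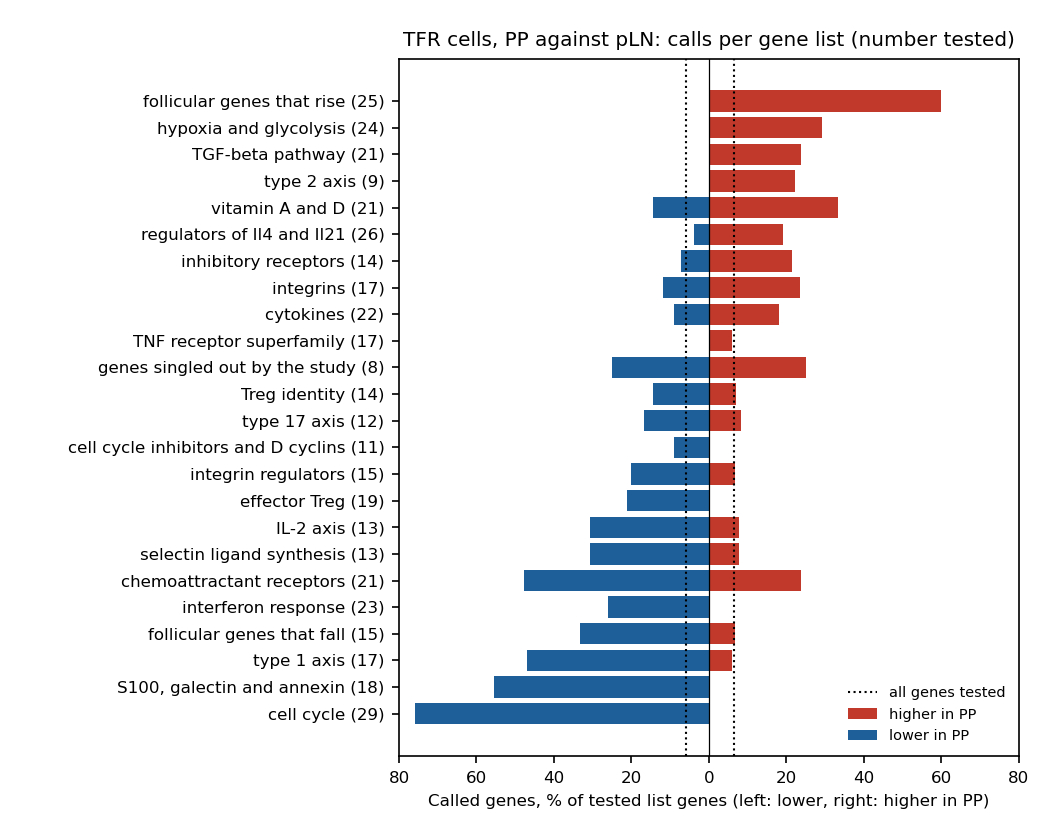
Share of tested genes of 24 lists that were called between PP and pLN TFR cells (x axis, %; right, higher in PP; left, lower in PP), with the number tested in brackets; the dotted lines mark the shares over all 14547 genes tested, 6.59% higher and 5.77% lower. Lists of genes that rise in follicular cells lie on the right, and cell cycle, S100 and type 1 genes on the left.

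Genes of the follicular programme were higher in PP TFR cells. Of 25 tested genes that rise in follicular T cells, 15 were called higher in PP, 0 lower and 10 not called, with a median log2 difference of 1.29. Without PP replicate 1 there were 11, against pLN d12 alone 14, against pLN d25 alone 8 and with slide as a random block 12. With only the 5 TFR arrays in the fit 9 were called. This list holds genes that the study named on these samples, so its direction is not independent evidence. Bcl6, the repressor that defines follicular T cells, was at 53774 and 46063 on the PP arrays and 8794, 10254 and 16807 on the pLN arrays (log2 difference 2.12, SE 0.29, adjusted p 0.00133). Ascl2, a basic helix-loop-helix factor that induces Cxcr5, was at 17635 and 9858 on the PP arrays and 1351, 864 and 2338 on the pLN arrays (log2 difference 3.24, SE 0.43, adjusted p 0.00105). Cxcr5, the receptor for the follicular chemokine CXCL13, was at 88179 and 72183 on the PP arrays and 12125, 13683 and 15655 on the pLN arrays (log2 difference 2.54, SE 0.30, adjusted p 0.000544). No PP array overlapped a pLN array for these genes, and pLN d25 was the highest of the 3 pLN arrays for each. Pdcd1, which encodes the sorted marker PD1, was at 166510 and 155320 on the PP arrays and 27456, 38287 and 51386 on the pLN arrays (log2 difference 2.09, SE 0.25, adjusted p 0.000661), although both tissues were gated as PD1hi. Il1r1, the signalling receptor of interleukin-1, was at 2168 and 1519 on the PP arrays and 323, 146 and 79.4 on the pLN arrays (log2 difference 3.55, SE 0.58, adjusted p 0.00296). Sh2d1a, which encodes the SLAM adaptor SAP, was at 65601 and 86319 on the PP arrays and 25323, 35495 and 37689 on the pLN arrays (log2 difference 1.22, SE 0.21, adjusted p 0.00364).

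Of the other genes of this list, Vdr, Hif1a, Gadd45b, Ptpn11 and Tbc1d4 were called whichever TFR array was left out, with log2 differences of 4.0, 2.17, 1.20, 1.24 and 1.51. Another tested probe of Tbc1d4 had the opposite sign and was not called (log2 difference -0.89, adjusted p 0.193). Maf, a factor that drives Il4 and Il21, was at 57245 and 63584 on the PP arrays and 14580, 21876 and 26103 on the pLN arrays (log2 difference 1.57, SE 0.36, adjusted p 0.0145), a call lost without PP replicate 1 (adjusted p 0.0667), without PP replicate 2 (adjusted p 0.0791) and without pLN d12 replicate 1 (adjusted p 0.0604). Rgs16, which damps chemokine signalling, was at 23305 and 22189 on the PP arrays and 4157, 5062 and 8905 on the pLN arrays (log2 difference 1.99, SE 0.50, adjusted p 0.0204), a call lost without PP replicate 1 (adjusted p 0.103), without PP replicate 2 (adjusted p 0.0825), without pLN d12 replicate 1 (adjusted p 0.0789) and without pLN d12 replicate 2 (adjusted p 0.0633). The groups did not overlap for either gene. With slide as a random block the calls of Gadd45b, Maf and Rgs16 were lost (adjusted p 0.0572, 0.127 and 0.085). Stx11, a vesicle fusion gene, and Tox2, a follicular HMG-box factor, lost their calls without PP replicate 1 (adjusted p 0.0669 and 0.271), and Tox2 also without pLN d12 replicate 2 and without pLN d25 (adjusted p 0.0704 and 0.115). Icos, the costimulatory receptor that sustains follicular cells, was at 156750 and 115870 on the PP arrays and 101940, 76855 and 82125 on the pLN arrays (log2 difference 0.64, SE 0.45, adjusted p 0.384), and Btla was at 14047 and 15672 on the PP arrays and 7315, 9845 and 11046 on the pLN arrays (log2 difference 0.68, SE 0.16, adjusted p 0.0148), under the 2-fold threshold.

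Of 15 tested genes listed as falling in follicular T cells, 5 were called lower in PP, 1 higher and 9 not called. Klf2, the factor that keeps T cells circulating, was at 6452 and 3891 on the PP arrays and 37163, 27296 and 14466 on the pLN arrays (log2 difference -2.29, SE 0.40, adjusted p 0.00411). Ccr7, the T-zone homing receptor, was at 9087 and 8321 on the PP arrays and 34295, 27697 and 36476 on the pLN arrays (log2 difference -1.91, SE 0.31, adjusted p 0.00313). For both genes each PP value lay under every pLN value. S1pr1, the receptor for egress into lymph, had a log2 difference of -1.45, and Sytl1 one of -1.51. Called higher in PP was Tcf7, which encodes TCF-1, a factor of early follicular commitment, at 63178 and 66882 on the PP arrays and 23078, 27766 and 32282 on the pLN arrays (log2 difference 1.24, SE 0.19, adjusted p 0.00244). Its place in this list does not hold here, as Tcf7 was higher in GL7+ TFH than in Treg cells. In PP it was at 156440 and 162130 in TFH cells and 45029 and 63496 in Treg cells. In pLN it was at 64499, 85684 and 81648 against 33821, 42396 and 38287. Id2 and Gpr183 of the list were also higher in TFH than in Treg cells in pLN. The calls of Klf2, Ccr7, S1pr1, Sytl1 and Tcf7 were kept whichever TFR array was left out. With slide as a random block those of Klf2 and S1pr1 were lost (adjusted p 0.0548 and 0.0743), and 3 genes of the list were called lower. Against pLN d25 alone 3 were called lower and 0 higher, and with only the TFR arrays in the fit 1 lower and 0 higher.

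**Figure D3:**
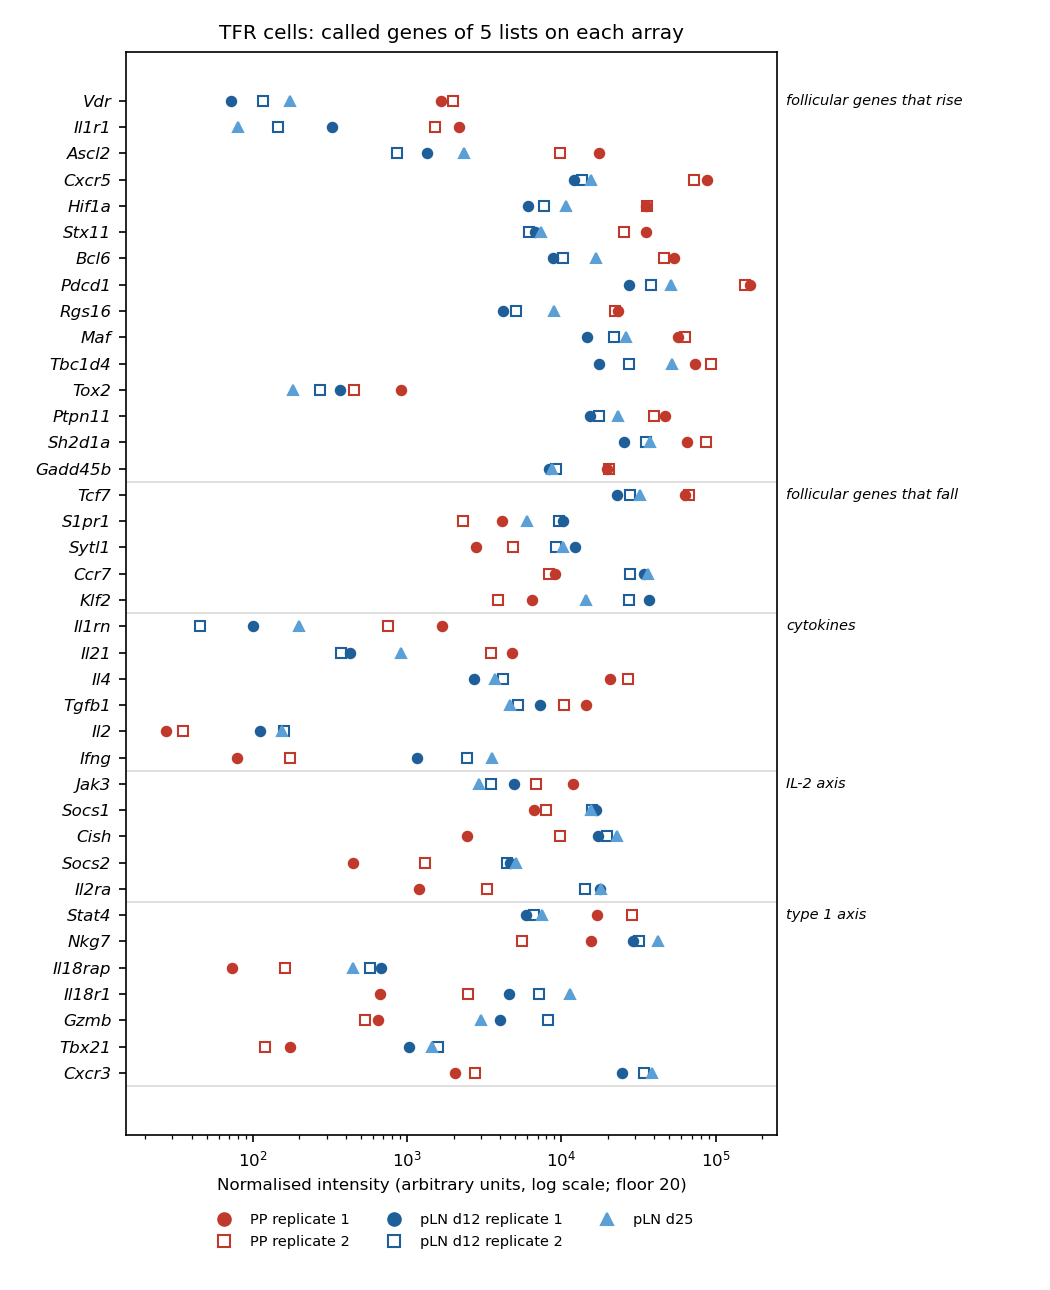
Normalised intensity (arbitrary units, log axis, floor 20) of called genes of 5 lists on each TFR array, with 1 point per array, red for PP and blue for pLN. The 2 PP points lie on 1 side of the 3 pLN points for each gene shown, and the PP and pLN points are about 3 log2 units apart for Ascl2, Il21, Il2ra and Tbx21.

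Of 14 tested Treg identity genes 1 was called higher in PP, 2 lower and 11 not called. Over all genes tested 6.59% were called higher and 5.77% lower, and small counts in the other lists are to be read against these shares too. Foxp3 itself was at 19242 and 13409 on the PP arrays and 29926, 22048 and 27484 on the pLN arrays (log2 difference -0.71, SE 0.32, adjusted p 0.164). The PP arrays lay below all pLN arrays, by a difference that did not pass the test. Il2ra, which encodes the high-affinity interleukin-2 receptor chain CD25, was at 1192 and 3268 on the PP arrays and 17697, 14256 and 18068 on the pLN arrays (log2 difference -3.07, SE 0.47, adjusted p 0.00228). Entpd1, which encodes the ectonucleotidase CD39, was at 42 and 110.2 on the PP arrays and 262, 398 and 544 on the pLN arrays (log2 difference -2.50, SE 0.42, adjusted p 0.00349). Izumo1r, the gene of folate receptor 4, was at 80203 and 79789 on the PP arrays and 30340, 25136 and 27857 on the pLN arrays (log2 difference 1.53, SE 0.26, adjusted p 0.00349). Il2ra and Entpd1 were thus lower and Izumo1r higher in PP, without overlap of the arrays. Ikzf2, Ctla4 and Tnfrsf18, which encode Helios, CTLA-4 and GITR, were not called, with log2 differences of 0.21, 0.38 and 0.10.

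Of 19 tested effector Treg genes 4 were called lower in PP and 0 higher: Zbtb32, Gzmb, Pparg and Prdm1. Gzmb, which encodes the cytotoxic protease granzyme B, was at 646 and 536 on the PP arrays and 3978, 8170 and 3016 on the pLN arrays (log2 difference -2.97, SE 0.33, adjusted p 0.000434). Pparg, a lipid-sensing nuclear receptor of tissue Treg cells, was at 169 and 159.8 on the PP arrays and 797, 592 and 419.6 on the pLN arrays (log2 difference -1.83, SE 0.29, adjusted p 0.00278). Prdm1, which encodes Blimp-1, the antagonist of Bcl6, was at 640.1 and 1065 on the PP arrays and 2242, 2222 and 3056 on the pLN arrays (log2 difference -1.59, SE 0.37, adjusted p 0.016), a call lost without PP replicate 1 (adjusted p 0.134). All 3 were lower on both PP arrays than on every pLN array. Il10, the suppressive cytokine of effector Treg cells, was at 463 and 1345 on the PP arrays and 1671, 2305 and 4382 on the pLN arrays (log2 difference -1.70, SE 0.56, adjusted p 0.0594), so PP was below pLN by a difference that did not pass the test. Klrg1 and Itgae, genes of mucosal effector Treg cells, had log2 differences of -0.03 and -0.06 and were not called.

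Cytokine genes were called in both directions. Of 22 tested, 4 were called higher and 2 lower in PP, where 6.59% and 5.77% of all genes tested were. Il21, the cytokine that drives plasma cell formation, was at 4759 and 3489 on the PP arrays and 428, 373 and 914 on the pLN arrays (log2 difference 2.95, SE 0.35, adjusted p 0.000607). Il4, the switch factor for IgG1 and IgE, was at 20574 and 27193 on the PP arrays and 2697, 4169 and 3715 on the pLN arrays (log2 difference 2.77, SE 0.60, adjusted p 0.0112), a call lost without PP replicate 2 (adjusted p 0.0714) and with slide as a random block (adjusted p 0.085). Ifng, the type 1 cytokine, was at 79 and 173 on the PP arrays and 1154, 2458 and 3538 on the pLN arrays (log2 difference -4.21, SE 0.54, adjusted p 0.000909). Il21 and Il4 were more than 3-fold higher on each PP array than on any pLN array, and Ifng more than 6-fold lower. Il1rn, the interleukin-1 receptor antagonist, was at 1675 and 749.7 on the PP arrays and 100.5, 45.4 and 199.6 on the pLN arrays (log2 difference 3.53, SE 0.57, adjusted p 0.00294). Tgfb1, the latent cytokine of regulatory T cells, was at 14466 and 10467 on the PP arrays and 7283, 5195 and 4618 on the pLN arrays (log2 difference 1.14, SE 0.26, adjusted p 0.0134), a call lost without PP replicate 1 (adjusted p 0.115). Il2 was low throughout (27.1 and 34.9 on the PP arrays and 111, 159.5 and 155 on the pLN arrays), was detected on 1 PP array only, and lost its call when any 1 of the TFR arrays was left out (adjusted p 0.082 to 0.208) or with slide as a random block (0.217). The neuropeptide precursor gene Penk was at 33683 and 59420 on the PP arrays and 52318, 52318 and 81836 on the pLN arrays and the BMP ligand gene Bmp7 at 5644 and 7023 on the PP arrays and 6276, 6606 and 7014 on the pLN arrays. Neither was called (adjusted p 0.358 and 0.925).

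Among the transcription factors and receptors that control Il4 and Il21, 5 of 26 tested were called higher in PP and 1 lower. Cebpa, a factor of the C/EBP family, was at 41597 and 21442 on the PP arrays and 3549, 2389 and 2226 on the pLN arrays (log2 difference 3.49, SE 0.60, adjusted p 0.00393). Its relative Cebpd was at 423 and 708 on the PP arrays and 98.1, 152 and 132 on the pLN arrays (log2 difference 2.12, SE 0.35, adjusted p 0.00296). Il27ra, a receptor whose ligand induces Maf and Il21, was at 19448 and 16312 on the PP arrays and 7641, 6963 and 8191 on the pLN arrays (log2 difference 1.23, SE 0.20, adjusted p 0.00291). These 3 genes kept their calls whichever TFR array was left out, and their arrays did not overlap. Il6ra, which receives interleukin-6, was lower in PP (9180.4 and 8661 on the PP arrays and 24809, 19924 and 19138 on the pLN arrays, log2 difference -1.25, SE 0.25, adjusted p 0.00698), a call lost with slide as a random block (adjusted p 0.0831). Egr1, an early antigen receptor response gene, had a log2 difference of 1.12, which fell under 2-fold without PP replicate 2 or pLN d12 replicate 1.

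The feedback targets of interleukin-2 were lower in PP, as was Il2ra. Interleukin-2 acts through STAT5, which induces the feedback genes Cish, Socs1 and Socs2. Of 13 tested genes of this axis, 4 were called lower and 1 higher in PP, and against pLN d25 alone 3 lower and 0 higher. With only the TFR arrays in the fit all these calls were lost (adjusted p 0.0646 for Il2ra, 0.0882 for Socs2, 0.0796 for Socs1 and 0.185 for Cish). Socs2 was at 445 and 1309 on the PP arrays and 4668, 4463 and 5097 on the pLN arrays (log2 difference -2.63, SE 0.42, adjusted p 0.00285). Socs1 was at 6626 and 7957 on the PP arrays and 16778, 15766 and 15542 on the pLN arrays (log2 difference -1.14, SE 0.19, adjusted p 0.00359). Cish was at 2455 and 9752 on the PP arrays and 17175, 19756 and 22846 on the pLN arrays (log2 difference -2.02, SE 0.61, adjusted p 0.0458), a call lost without PP replicate 1 (adjusted p 0.362), without pLN d12 replicate 1 (adjusted p 0.0868), without pLN d12 replicate 2 (adjusted p 0.104) and without pLN d25 replicate 1 (adjusted p 0.0815) and with slide as a random block (0.0877). On both PP arrays all 3 feedback genes were under every pLN value, and Cish and Socs2 were lower on PP replicate 1 than on PP replicate 2. Il2rb, Stat5a and Stat5b, which encode the shared receptor chain and the STAT5 proteins, were not called (log2 differences -0.10, -0.16 and 0.10). Jak3 was called higher (log2 difference 1.29, SE 0.35, adjusted p 0.0293), a call lost without PP replicate 1 (adjusted p 0.224), without pLN d12 replicate 2 (adjusted p 0.0716) and without pLN d25 replicate 1 (adjusted p 0.0746).

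Of 17 tested type 1 genes, 8 were called lower and 1 higher in PP, with a median log2 difference of -1.81. Without PP replicate 1 there were 6 and 1, and against pLN d25 alone 5 and 0. Tbx21, which encodes the type 1 factor T-bet, was at 175 and 120.1 on the PP arrays and 1019, 1591 and 1437 on the pLN arrays (log2 difference -3.19, SE 0.53, adjusted p 0.0032). Its target Cxcr3, a receptor for interferon-induced chemokines (probe at chromosome X, 98926920 to 98926979), was at 2054 and 2751 on the PP arrays and 24669, 34295 and 38766 on the pLN arrays (log2 difference -3.75, SE 0.51, adjusted p 0.00122). Il18rap, a chain of the interleukin-18 receptor, was at 72.8 and 161 on the PP arrays and 674, 571 and 448 on the pLN arrays (log2 difference -2.36, SE 0.40, adjusted p 0.00365). For these genes, as for Ifng and Gzmb, both PP arrays were at least 2-fold under the lowest pLN array. Il18r1, the other chain of that receptor, lost its call without PP replicate 1 (adjusted p 0.119) and Nkg7 without PP replicate 2 (adjusted p 0.146). Il18rap lost its call with slide as a random block (adjusted p 0.0514), a fit that called 6 of the list lower, and 5 were called lower with only the TFR arrays in the fit. Stat4, which transmits interleukin-12 signals, went the other way, at 17088 and 28740 on the PP arrays and 5855, 6674 and 7456 on the pLN arrays (log2 difference 1.74, SE 0.31, adjusted p 0.00439). The receptors for interleukin-12 and interferon gamma, Il12rb1, Il12rb2 and Ifngr1, were not called.

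In the type 2 list 2 of 9 tested genes were called, Il4 and Ccr8, both higher in PP. Ccr8 was at 9739 and 4454 on the PP arrays and 2248, 1276 and 1484 on the pLN arrays (log2 difference 2.02, SE 0.60, adjusted p 0.0411) and lost its call when any 1 TFR array was left out (adjusted p 0.0553 to 0.268). Gata3, the type 2 master factor, was at 4368 and 15520 on the PP arrays and 10320, 14933 and 12259 on the pLN arrays (log2 difference -0.59, SE 0.65, adjusted p 0.601), a range in which the tissues overlapped. In the type 17 list Il1r1 was called higher and Ccr6 and Il6ra lower out of 12 tested, where 6.59% and 5.77% of all genes tested were. Ccr6, a receptor for the CCL20 of the follicle-associated epithelium, was at 7472 and 8319.5 on the PP arrays and 21209, 22846 and 26945 on the pLN arrays (log2 difference -1.58, SE 0.36, adjusted p 0.0131), a call lost without PP replicate 1 (adjusted p 0.0841) and without PP replicate 2 (adjusted p 0.0556) and with slide as a random block (0.13). For Ccr6 both PP arrays lay under all pLN arrays.

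Receptors that guide migration differed in both directions. Of 21 tested chemoattractant receptors 5 were called higher and 10 lower in PP, and 3 and 7 without PP replicate 1. With slide as a random block they were 5 and 5, with S1pr1, Ccr3 and Gpr18 among those lost (adjusted p 0.0743, 0.0917 and 0.226), and with only the TFR arrays in the fit 3 and 6. Cxcr4, which positions cells in the germinal centre dark zone, was at 8806 and 9514 on the PP arrays and 1104, 928 and 842 on the pLN arrays (log2 difference 3.26, SE 0.63, adjusted p 0.00631). With Cxcr5 and Ccr9 it was called higher whichever TFR array was left out. S1pr2, which holds cells in the germinal centre, was at 1104 and 1979.7 on the PP arrays and 298, 548 and 686 on the pLN arrays (log2 difference 1.62, SE 0.50, adjusted p 0.0487), a call lost without PP replicate 1 (adjusted p 0.078), without PP replicate 2 (adjusted p 0.246), without pLN d12 replicate 1 (adjusted p 0.167) and without pLN d12 replicate 2 (adjusted p 0.0747). Lower in PP were Cxcr3, Ccr7, Ccr10 and S1pr1 as given above. Ccr2, an inflammatory homing receptor, was at 22.6 and 49.8 on the PP arrays and 324, 543 and 309.8 on the pLN arrays (log2 difference -3.50, SE 0.81, adjusted p 0.0145), was detected on only 1 PP array, and lost its call without PP replicate 1 (adjusted p 0.115) and without pLN d12 replicate 2 (adjusted p 0.0523). Ccr3 lost its call without PP replicate 2 (adjusted p 0.0916), S1pr4 without PP replicate 2 (adjusted p 0.234), without pLN d12 replicate 1 (adjusted p 0.103) and without pLN d12 replicate 2 (adjusted p 0.105), and Gpr18 without any 1 of the arrays other than PP replicate 1 (adjusted p 0.0523 to 0.334).

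Integrin chains were called in both directions. Of 17 tested, 4 were called higher and 2 lower, where 6.59% and 5.77% of all genes tested were. Itgb1, the common chain of the matrix-binding integrins, was at 2838 and 2775 on the PP arrays and 16111, 17175 and 17745 on the pLN arrays (log2 difference -2.60, SE 0.27, adjusted p 0.000302). Itga6, its partner in a laminin receptor, was at 2662 and 2323 on the PP arrays and 6697, 5610.3 and 4804 on the pLN arrays (log2 difference -1.18, SE 0.21, adjusted p 0.0042). Itgav, of the integrins that release active TGF-beta, was at 2893 and 2254 on the PP arrays and 863, 1082 and 1528 on the pLN arrays (log2 difference 1.18, SE 0.22, adjusted p 0.00569). Its call was lost without PP replicate 1 (log2 difference 1.0) and, by the fold threshold alone, without pLN d12 replicate 1 (log2 difference 0.99). Itgb1 and Itga6 were thus lower and Itgav higher, with no overlap. Itga3, another laminin receptor chain, was detected on both PP arrays and 1 pLN array (162 and 175 on the PP arrays and 47.2, 23.4 and 28.7 on the pLN arrays, log2 difference 2.41, SE 0.43, adjusted p 0.00435), and Itga5, of the fibronectin receptor, was not well above background in pLN and at least 1.5-fold higher in PP. Itgb8, a partner of Itgav, was not well above background in pLN and at least 2.26-fold higher in PP (119 and 161). The chains of the gut-homing integrin alpha4 beta7 were not called: Itga4 was at 11091 and 20301 on the PP arrays and 4602, 6932 and 8284 on the pLN arrays (adjusted p 0.0953) and Itgb7 at 28210 and 35675 on the PP arrays and 53501, 69169 and 64102 on the pLN arrays (adjusted p 0.0251), so Itga4 was higher and Itgb7 lower on both PP arrays than on all pLN arrays. Of 15 tested regulators of integrins and the cytoskeleton, Asb2 was called higher and Plxnd1, Rasgrp2 and Flna lower. The shares over all genes tested were again 6.59% and 5.77%. Flna, which encodes filamin A, a target of Asb2, was at 55602 and 45572 on the PP arrays and 109730, 105320 and 95375 on the pLN arrays (log2 difference -1.04, SE 0.18, adjusted p 0.0038). This difference lay close to 2-fold and fell under it without PP replicate 2 or pLN d12 replicate 1. Plxnd1 lost its call without PP replicate 1 (adjusted p 0.0571) and Rasgrp2 without PP replicate 2 (adjusted p 0.178), pLN d12 replicate 1 (0.117) or pLN d12 replicate 2 (0.0617), and with slide as a random block (0.0535).

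Enzymes of selectin ligand synthesis gave 4 genes lower and 1 higher of 13 tested. Beside Fut7, the branching enzyme gene Gcnt1 was at 608 and 210.2 on the PP arrays and 4840.5, 6219 and 8898 on the pLN arrays (log2 difference -4.17, SE 0.67, adjusted p 0.00277). Both PP arrays were at least 7-fold under the lowest pLN array. Cd44, a carrier of such ligands, lost its call without PP replicate 1 (adjusted p 0.0761) and with slide as a random block (0.0837). St3gal3, the gene called higher, lost its call without any 1 of the arrays other than pLN d25 (adjusted p 0.064 to 0.219).

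Genes of vitamin A and D handling differed as well. Retinoic acid is made from vitamin A by gut dendritic cells and epithelium and imprints gut homing on T cells. Of 21 tested genes 7 were called higher and 3 lower in PP. Dhrs3, a retinaldehyde reductase that retinoic acid induces, was at 10793 and 15052 on the PP arrays and 1263, 1503 and 1969.8 on the pLN arrays (log2 difference 3.04, SE 0.18, adjusted p 1.78e-05). Tgm2, a transglutaminase gene also induced by retinoic acid, was at 4248 and 1966 on the PP arrays and 249, 206 and 219 on the pLN arrays (log2 difference 3.69, SE 0.43, adjusted p 0.00057). Vdr, the receptor for vitamin D, was at 1654 and 1983 on the PP arrays and 71.5, 115 and 175 on the pLN arrays (log2 difference 4.0, adjusted p 7.39e-05). Each PP value was at least 5-fold above every pLN value. Aldh1a3, an enzyme that makes retinoic acid, was not well above background in pLN and at least 1.51-fold higher in PP (87.2 and 95.6). Rara, the main retinoic acid receptor of T cells, was at 836 and 822 on the PP arrays and 4952, 4255 and 5110.4 on the pLN arrays (log2 difference -2.52, SE 0.17, adjusted p 3.45e-05). Rarg, another such receptor, was at 2289.6 and 2370.5 on the PP arrays and 5553, 5219 and 6360 on the pLN arrays (log2 difference -1.29, SE 0.18, adjusted p 0.00136). Both receptors were therefore lower in PP, while Dhrs3 and Tgm2 were higher. Cyp26b1, which degrades retinoic acid, was near the floor on all TFR arrays (26.6 and 35.9 on the PP arrays and 20, 20 and 20 on the pLN arrays) and not called. Rxra lost its call without PP replicate 1 (adjusted p 0.094) or under the random slide block (0.0642). So did Stra6, whose highest value on any TFR array was 63.2, without any 1 of the arrays except pLN d12 replicate 1 (adjusted p up to 0.136) and with slide as a random block (0.181).

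In low oxygen the factor HIF-1 induces genes of glycolysis, and prolyl hydroxylases such as Egln3 mark it for breakdown. Of 24 tested genes of hypoxia and glycolysis, 7 were called higher and 0 lower in PP, with a median log2 difference of 0.64, and against pLN d25 alone 6 were called higher and 0 lower. With only the TFR arrays in the fit 4 were called higher. Hif1a was at 35303 and 35903 on the PP arrays and 6044, 7764 and 10651 on the pLN arrays (log2 difference 2.17, SE 0.23, adjusted p 0.000314). Egln3 was at 3309 and 3689 on the PP arrays and 730, 746 and 885 on the pLN arrays (log2 difference 2.16, SE 0.29, adjusted p 0.00121). Pfkp, a phosphofructokinase gene, was at 6456 and 5336 on the PP arrays and 2271, 2203 and 2059 on the pLN arrays (log2 difference 1.43, SE 0.19, adjusted p 0.00117). These PP values were at least 2-fold above every pLN value and close to each other. Pfkl, another phosphofructokinase gene, and Aldoc, an aldolase gene, had log2 differences of 1.81 and 1.44. Slc16a3, a lactate exporter, had one of 1.27 and lost its call without PP replicate 1 (adjusted p 0.0502). Vegfa, a vascular growth factor, was not well above background in pLN and at least 1.49-fold higher in PP (98.4 and 81.7). The glucose transporter genes Slc2a1 and Slc2a3 and the lactate dehydrogenase gene Ldha were not called (log2 differences 0.68, 0.48 and -0.24). The probes of Epas1, which encodes HIF-2alpha, disagreed: the brightest gave 47069 and 15199 in PP against 14599, 8569 and 8806 in pLN and was not called (adjusted p 0.218), whereas the other tested probes were called higher in PP, one (chromosome 17, 87232615 to 87232674) at 21486 and 56756 against 439, 640.3 and 496 (log2 difference 6.07, adjusted p 0.000117), and another (chromosome 17, 87230587 to 87230646) at 857 and 1696 against the floor of 20 on all pLN arrays, none of which was well above background (adjusted p 1.37e-05).

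Among 14 tested inhibitory receptors, Pdcd1, Lag3 and Vsir were called higher and Havcr2 lower. Lag3, which binds MHC class II, was at 19150 and 20944 on the PP arrays and 3259, 3997 and 4682 on the pLN arrays (log2 difference 2.35, SE 0.31, adjusted p 0.00103). Vsir, which encodes VISTA, was at 27880 and 20371 on the PP arrays and 8584, 9182 and 11226 on the pLN arrays (log2 difference 1.31, SE 0.21, adjusted p 0.00249). Havcr2, which encodes TIM-3, was at 21.6 and 103 on the PP arrays and 389, 694 and 422 on the pLN arrays and was detected on only 1 PP array (log2 difference -3.36, SE 0.55, adjusted p 0.0031). All these calls were kept whichever TFR array was left out. In the TGF-beta list 5 of 21 tested genes were called higher and 0 lower: Tgfb1, Itgav, Itgb8, Sostdc1 and Smurf2, a ubiquitin ligase of the pathway (2449 and 3692 on the PP arrays and 1023, 1029 and 1387 on the pLN arrays, log2 difference 1.41, SE 0.22, adjusted p 0.00224). The receptor gene Tgfbr2 was at 20862 and 17443 on the PP arrays and 8060.5, 8967 and 12611 on the pLN arrays (log2 difference 0.98, under 2-fold), and Tgfbr1, Smad2, Smad3 and Smad4 were not called. Of 17 tested genes of the TNF receptor superfamily only Ltbr was called, at least 1.67-fold higher in PP, with no pLN array well above background. This count is near the share of all genes tested that were called higher, 6.59%. Among 8 genes that the study singled out on these samples, so that their direction is no independent evidence, Sun5 was higher besides Sostdc1 (19465 and 8069 on the PP arrays and 1642, 965 and 829.9 on the pLN arrays, log2 difference 3.52, SE 0.42, adjusted p 0.000628), and Popdc2 and Nrn1 were lower (log2 differences -2.89 and -2.36).

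Most cell cycle genes were lower in PP. Of 29 tested, 22 were called lower, 0 higher and 7 not called, and on 28 both PP arrays lay under all 3 pLN arrays, where 24.8% of all genes tested did. The median level of the list was 3518 and 2894 on the PP arrays, 13230 and 10108 on the pLN d12 arrays and 6256 on the pLN d25 array. The d25 array thus lay between the d12 and the PP arrays. Against pLN d12 alone 23 were called lower, and against pLN d25 alone 2, E2f2 and Ccne1. Many of these calls were not robust to single arrays: of the 22 calls, 16 were kept without PP replicate 1, 6 without PP replicate 2, 9 without pLN d12 replicate 1, 10 without pLN d12 replicate 2 and 22 without pLN d25, and the random slide block left 8 genes called and a fit of the TFR arrays alone 5. The 5 genes kept whichever TFR array was left out were Aurka, Kif20a, Mcm7, E2f2 and Ccne1. Ccne1, the cyclin of S-phase entry, was at 2150.2 and 1622 on the PP arrays and 9306, 7952 and 4576 on the pLN arrays (log2 difference -1.90, SE 0.20, adjusted p 0.000303). E2f2, a factor that drives S-phase genes, was at 4614 and 3723 on the PP arrays and 16200, 13888 and 9035 on the pLN arrays (log2 difference -1.61, SE 0.21, adjusted p 0.000918). Mcm7, a subunit of the replicative helicase, was at 22462 and 18796 on the PP arrays and 57716, 48366 and 39915 on the pLN arrays (log2 difference -1.23, SE 0.17, adjusted p 0.00143). Aurka, a mitotic kinase, was at 935 and 719 on the PP arrays and 4774, 3660.1 and 1841 on the pLN arrays (log2 difference -1.96, SE 0.33, adjusted p 0.0035). For each of them the d12 arrays were highest and the PP arrays lowest. Mki67, the proliferation marker Ki-67, was at 4542 and 4524 on the PP arrays and 29512, 11863 and 7226 on the pLN arrays (log2 difference -1.59, SE 0.50, adjusted p 0.0514). Among 11 tested cell cycle inhibitors and D cyclins Cdkn2a alone was called, lower in PP, where 5.77% of all genes tested were.

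**Figure D4:**
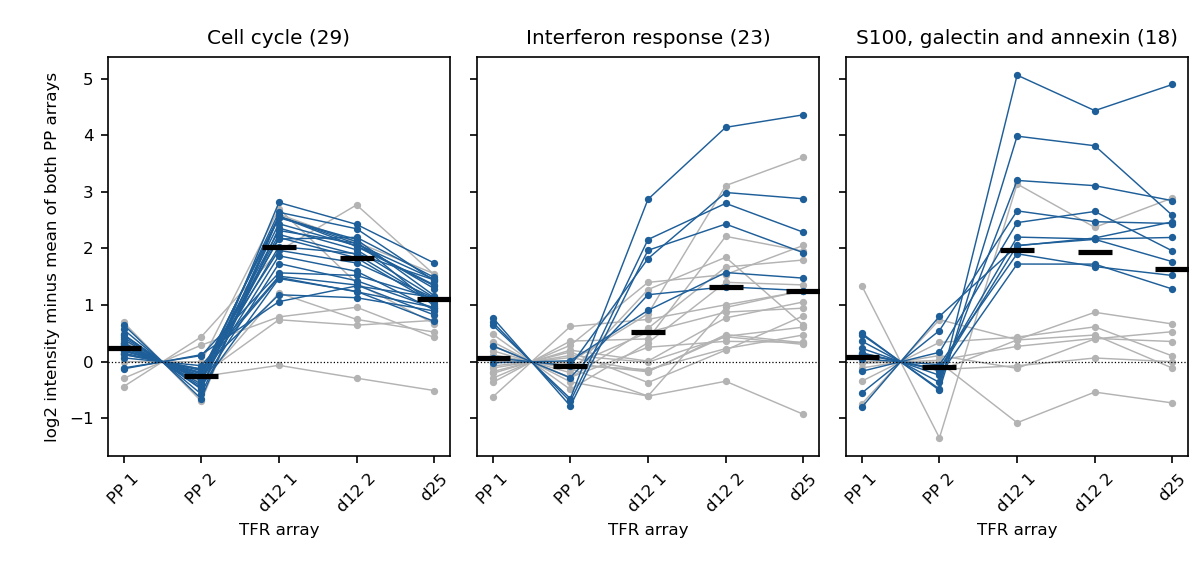
Log2 normalised intensity of each tested gene of 3 lists on the 5 TFR arrays (x axis), relative to that gene's mean over both PP arrays (y axis, log2 units). Lines join the arrays of 1 gene, blue for genes called lower in PP and grey for the others, and black bars are medians of the list, which lie above the PP arrays on all 3 pLN arrays in each panel.

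To describe the promoters of the cell cycle list, the 250 bases before the start of each gene were read from the RefSeq promoter table (mouse GRCm38.p6). Promoters of mitotic genes are known for CCAAT boxes, bound by NF-Y, and for the cell cycle element TTTGAA. The first of them, CCAAT, was found on either strand in 22 of the 26 tested cell cycle genes that the table holds (84.6%) and in 17 of the 20 called lower (85%), against 37.5% of all 27025 promoters. The second, TTTGAA, was found on either strand in 9 of 26 (34.6%) and 6 of 20 (30%), against 18.3% of all. The list was chosen as cell cycle genes, so its excess over all promoters says nothing about the tissues. The called genes held both motifs about as often as the tested ones. Matches of the motifs can overlap at their ends. Shown are 3 mitotic genes called lower in PP whose promoters hold both: Ccnb2, a mitotic cyclin gene (chr9:70421555-70421804, minus strand), Cdc20, the activator of the anaphase ligase (chr4:118437344-118437593, minus strand) and Top2a, the DNA topoisomerase of dividing cells (chr11:99024190-99024439, minus strand). Capitals mark each match on either strand, and a match is a description of the letters only.
Ccnb2: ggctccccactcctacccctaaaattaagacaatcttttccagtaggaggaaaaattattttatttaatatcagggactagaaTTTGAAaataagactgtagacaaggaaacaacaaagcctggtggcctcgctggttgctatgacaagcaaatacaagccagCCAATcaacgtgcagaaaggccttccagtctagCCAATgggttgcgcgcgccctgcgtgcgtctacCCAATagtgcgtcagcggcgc
Cdc20: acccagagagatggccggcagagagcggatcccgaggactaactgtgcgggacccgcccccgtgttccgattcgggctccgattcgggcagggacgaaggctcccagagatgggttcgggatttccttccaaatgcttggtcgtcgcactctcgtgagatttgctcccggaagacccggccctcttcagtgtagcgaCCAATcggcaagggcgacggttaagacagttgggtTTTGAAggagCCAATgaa
Top2a: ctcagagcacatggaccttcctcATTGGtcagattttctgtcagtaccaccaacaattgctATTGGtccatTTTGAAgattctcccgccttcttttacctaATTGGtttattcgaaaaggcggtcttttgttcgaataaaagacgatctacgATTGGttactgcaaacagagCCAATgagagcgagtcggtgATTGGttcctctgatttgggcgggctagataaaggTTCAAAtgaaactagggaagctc

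The TFR levels of these 3 genes were as follows. Ccnb2 was at 5658 and 2894 on the PP arrays and 28409, 21728 and 13541 on the pLN arrays (log2 difference -2.33, SE 0.57, adjusted p 0.0192), a call lost without PP replicate 2 (adjusted p 0.129), without pLN d12 replicate 1 (adjusted p 0.0718) and without pLN d12 replicate 2 (adjusted p 0.0552). Cdc20 was at 8917 and 3599 on the PP arrays and 33542, 23217 and 14342 on the pLN arrays (log2 difference -1.98, SE 0.49, adjusted p 0.02), a call lost without PP replicate 2 (adjusted p 0.151), without pLN d12 replicate 1 (adjusted p 0.0824) and without pLN d12 replicate 2 (adjusted p 0.0529). Top2a was at 2126 and 1338 on the PP arrays and 7717, 6012 and 3439 on the pLN arrays (log2 difference -1.69, SE 0.41, adjusted p 0.0188), a call lost without PP replicate 2 (adjusted p 0.125), without pLN d12 replicate 1 (adjusted p 0.0814) and without pLN d12 replicate 2 (adjusted p 0.0574). With slide as a random block none of these 3 calls held (adjusted p 0.138, 0.106 and 0.167). For all 3 both PP arrays lay under the lowest pLN array, which was d25.

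Genes for S100 proteins, galectins and annexins, with related genes of the cytoskeleton, are often high in migratory effector T cells. Of 18 tested, 10 were called lower and 0 higher, with a median log2 difference of -1.85, and 7 without PP replicate 1 and 5 against pLN d25 alone. S100a4, a calcium-binding protein of motile cells, was at 16695 and 10079 on the PP arrays and 119310, 111910 and 93112 on the pLN arrays (log2 difference -3.05, SE 0.59, adjusted p 0.00627), a call lost without PP replicate 2 (adjusted p 0.0539). Lgals1, which encodes galectin-1, was at 50448 and 40590 on the PP arrays and 187930, 202330 and 154010 on the pLN arrays (log2 difference -1.99, SE 0.29, adjusted p 0.0017). Crip1, a LIM-domain protein, was at 62374 and 44830 on the PP arrays and 174830, 174650 and 128740 on the pLN arrays (log2 difference -1.58, SE 0.20, adjusted p 0.000855). Emp3, a membrane protein, was at 12638 and 10500 on the PP arrays and 52964, 51743 and 52717 on the pLN arrays (log2 difference -2.19, SE 0.18, adjusted p 9.23e-05). The PP and pLN arrays of these 4 genes did not overlap. With Lmna and Anxa6 (log2 difference -1.70), Lgals1, Crip1 and Emp3 kept their calls whichever TFR array was left out. Vim, which encodes vimentin, was at 9494 and 20395 on the PP arrays and 88179, 77235 and 75547 on the pLN arrays (log2 difference -2.53, SE 0.46, adjusted p 0.00491), a call lost without PP replicate 1 (adjusted p 0.0517). S100a6 lost its call without PP replicate 1 (adjusted p 0.0823), Ahnak without PP replicate 1 (adjusted p 0.171) and without pLN d12 replicate 2 (adjusted p 0.0513), and Lgals3 without any 1 of the arrays other than pLN d25 (adjusted p 0.084 to 0.156). With slide as a random block the calls of S100a6 and Ahnak were lost (adjusted p 0.101 and 0.0727). S100a10 and S100a11 were not called, with log2 differences of -0.64 and 0.78.

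Interferon-response genes gave 6 lower and 0 higher of 23 tested, with a median log2 difference of -1.03, and 5 lower without PP replicate 1. With only the TFR arrays in the fit none of these 6 calls held (adjusted p 0.0614 to 0.13). Ifit3, an antiviral protein with tetratricopeptide repeats, was at 342 and 139 on the PP arrays and 1594, 3842 and 4478 on the pLN arrays (log2 difference -3.79, SE 0.64, adjusted p 0.00342). Usp18, which removes ISG15 from proteins, was at 390.5 and 353 on the PP arrays and 1312, 2945 and 2727 on the pLN arrays (log2 difference -2.56, SE 0.47, adjusted p 0.00492). Ly6c1, a surface protein that interferon induces in T cells, was at 11175 and 4234 on the PP arrays and 30706, 47800 and 33573 on the pLN arrays (log2 difference -2.41, SE 0.40, adjusted p 0.0031). The PP arrays lay under the pLN arrays for all 3, and pLN d12 replicate 1 was nearest to PP for each. Bst2, which encodes tetherin, lost its call without PP replicate 2 (adjusted p 0.086). Oas1a, a sensor of double-stranded RNA, was at 5458 and 5592 on the PP arrays and 10366, 16465 and 15376 on the pLN arrays (log2 difference -1.32, SE 0.36, adjusted p 0.0287), a call lost without PP replicate 1 (adjusted p 0.127), without PP replicate 2 (adjusted p 0.104), without pLN d12 replicate 2 (adjusted p 0.0781) and without pLN d25 replicate 1 (adjusted p 0.0564). Ly6a, which encodes Sca-1, had a log2 difference of -2.11, a call lost with slide as a random block (adjusted p 0.0859). Isg15, Irf7 and Stat2 were not called, with log2 differences of -0.21, -0.32 and -0.30, so only part of the list differed at this threshold.

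The interferon-stimulated response element was searched on either strand as GAAA, any 2 bases and GAAA again. It was in 9 of the 17 tested genes of this list that the promoter table holds (52.9%) and in 3 of the 4 called lower, against 3.46% of all promoters. This list was chosen by interferon response, so its excess over all promoters says nothing about the tissues. The 3 are shown because they carry the element and were called lower: Ifit3 (chr19:34583279-34583528, plus strand), Oas1a (chr5:120907526-120907775, minus strand) and Bst2 (chr8:71537473-71537722, minus strand). Capitals mark the matches, which overlap each other in Oas1a and Bst2.
Ifit3: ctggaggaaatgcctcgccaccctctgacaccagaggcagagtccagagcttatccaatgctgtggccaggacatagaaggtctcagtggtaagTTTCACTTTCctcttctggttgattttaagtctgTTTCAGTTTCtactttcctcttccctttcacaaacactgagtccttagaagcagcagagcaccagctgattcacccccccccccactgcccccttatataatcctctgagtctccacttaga
Oas1a: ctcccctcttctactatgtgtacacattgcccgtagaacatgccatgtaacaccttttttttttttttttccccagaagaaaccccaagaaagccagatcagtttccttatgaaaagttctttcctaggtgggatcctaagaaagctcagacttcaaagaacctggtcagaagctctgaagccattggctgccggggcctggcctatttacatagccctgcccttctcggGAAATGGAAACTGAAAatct
Bst2: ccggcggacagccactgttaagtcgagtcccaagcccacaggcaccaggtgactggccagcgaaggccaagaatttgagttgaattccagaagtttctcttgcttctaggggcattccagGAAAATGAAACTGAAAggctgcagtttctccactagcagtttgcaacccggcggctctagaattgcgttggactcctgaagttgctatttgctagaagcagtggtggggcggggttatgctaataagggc
The STAT5 motif TTCNNNGAA, which reads the same on both strands, was in 2 of 11 genes of the interleukin-2 list (18.2%) and in 0 of the 3 called lower that the table holds, against 8.13% of all promoters.

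The tissue difference of TFR cells was then set against that of Treg and of GL7+ TFH cells, which were sorted from the same tissues and days and hybridised on the same slides. Some of their arrays carried B-cell and epithelial transcripts as well. The B-cell gene Ms4a1 was at 19568 and 1101 on the Treg PP arrays and 444, 2462 and 692 on the Treg pLN arrays. In TFH cells it was at 7215.5 and 2418 in PP and 4099.7, 448 and 460 in pLN. The epithelial gene Fabp2 was at 29054 and 502 on the Treg PP arrays and 8977 and 536 on the TFH PP arrays. Their part in these tests was not tested. Between PP and pLN 423 genes (2.91%) were called in Treg cells, 2.23% higher and 0.681% lower in PP, and 789 (5.42%) in GL7+ TFH cells, 2.73% higher and 2.69% lower. Among the leading genes, Hic1 was called higher in both of these cell types (log2 differences 5.06 and 6.26). Wnt10a, Fut7, Zbtb32, Ccl8, Ccr10, Gzmc and Cdkn2a were called lower in both (-3.57 and -4.68 for Fut7). None of these leading genes was called in either test of the difference given next. Also called higher in PP in Treg cells were Asb2 (log2 difference 4.91), Grtp1 (4.69), Spock3 (4.07), Calca (3.69), Art2a (3.39), Ccr9 (3.28) and Gpr153 (2.06). In GL7+ TFH cells Ccdc120 (2.99) and Grtp1 (2.11) were called higher, and Trpm6 (-5.98), Dnah7a (-3.83) and Lmna (-3.50) lower. Sostdc1, Fgd5, Esrrg, Agr3 and Galnt14 were called in neither of these cell types. The test of the difference itself called 136 genes (0.935%) for TFR against Treg, 77 of them (0.529%) with a more positive and 59 (0.406%) with a more negative difference in TFR cells. For TFR against TFH cells it called 142 (0.976%), 111 (0.763%) and 31 (0.213%). On the probe scale these were 0.799% and 0.777% of tested probes. Of these, 117 and 112 were also called in TFR cells between tissues, and 50 genes were called in both tests. With slide as a fixed block all 136 and all 142 stayed called. Without slide 4, which held replicate 1 of all PP groups, 9 and 23 stayed called.

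Compared with Treg cells, TFR cells had a more negative tissue difference in Cxcr3, Gzmb, Il10 and Rara. Cxcr3 in Treg cells was at 13149 and 9489.7 on the PP arrays and 10302, 7602 and 10115 on the pLN arrays, so the tissues overlapped there, and the tissue difference was lower in TFR cells by a test value of -4.02, SE 0.72, adjusted p 0.0353 on the log2 scale. Il10 in Treg cells was at 4527 and 3338 on the PP arrays and 1212, 503 and 194 on the pLN arrays, with a difference between them of -4.69, SE 0.79, adjusted p 0.0271. Gzmb in Treg cells was at 6765 and 4695 on the PP arrays and 6726, 6135 and 1821 on the pLN arrays, with a difference of -3.39, SE 0.47, adjusted p 0.0112. Rara in Treg cells was at 4914 and 4099.7 on the PP arrays and 7451, 6887 and 6732 on the pLN arrays, with one of -1.88, SE 0.24, adjusted p 0.00791. In Treg cells Cxcr3 and Gzmb overlapped between the tissues and Il10 was higher on both PP arrays, while Rara was lower in PP there too, but by less than in TFR cells. Cyp26b1 in Treg cells was at 2133 and 1964 on the PP arrays and 31.5, 24.5 and 87.7 on the pLN arrays, with a difference of -5.02, SE 0.23, adjusted p 1.68e-05. It was the only list or leading gene of this test that stayed called without slide 4. Ascl2 in Treg cells was at 216 and 169 on the PP arrays and 309, 226 and 495 on the pLN arrays, and the difference was 4.01, SE 0.61, adjusted p 0.0165, more positive in TFR cells.

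Compared with GL7+ TFH cells, TFR cells had a more positive tissue difference in Ascl2, Il21, Vdr, Hif1a and Egln3. Vdr in TFH cells was at 2121 and 2702 on the PP arrays and 2789.8, 2612 and 2042 on the pLN arrays, with no separation of the tissues, and the difference was 4.04, SE 0.44, adjusted p 0.00302. Hif1a in TFH cells was at 30419 and 29650 on the PP arrays and 29827, 19955 and 24970 on the pLN arrays, with a difference of 1.88, SE 0.32, adjusted p 0.0288. Il21 in TFH cells was at 17168 and 15163 on the PP arrays and 17879, 16636 and 15019 on the pLN arrays, with one of 2.98, SE 0.50, adjusted p 0.0253. For these 3 genes the PP and pLN levels of TFH cells overlapped, and TFR cells in PP were closer to the TFH levels than TFR cells in pLN. Ascl2 in TFH cells was at 27675 and 16893 on the PP arrays and 59656, 24716 and 43331 on the pLN arrays, with a difference of 4.12, SE 0.61, adjusted p 0.0141. Egln3 in TFH cells was at 6380.4 and 8066 on the PP arrays and 8247, 6709.7 and 7424 on the pLN arrays, with a difference of 2.21, SE 0.41, adjusted p 0.0455. Dhrs3 in TFH cells was at 8990.1 and 8109 on the PP arrays and 4114, 4914 and 8159 on the pLN arrays, with a difference of 2.40, SE 0.25, adjusted p 0.00245, and with Grtp1 it was the gene that stayed called without slide 4. The cell cycle, S100 and interferon lists held 0 genes called in the test against TFH cells, which called 0.976% of all genes. With so small a share over all genes, the 0 says little about these lists. In TFH cells 4 of 29, 9 of 18 and 6 of 23 were called lower in PP, against 22, 10 and 6 in TFR cells. That these lists differ less between TFR and TFH cells than others do was not tested.

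**Figure D5:**
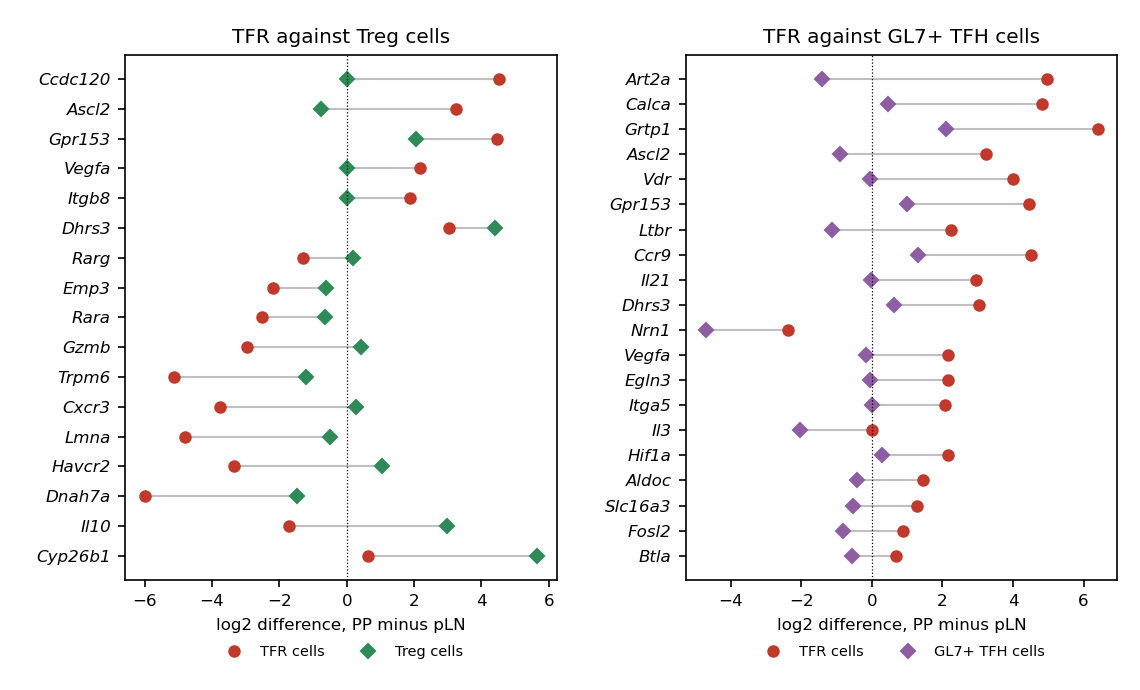
Log2 difference between PP and pLN (x axis) of list and leading genes called in the test of the difference between cell types, with TFR cells in red, Treg cells in green (left) and GL7+ TFH cells in purple (right). The TFR points of Cxcr3, Gzmb and Rara lie to the left of the Treg points, and those of Vdr, Il21, Ascl2 and Hif1a to the right of the TFH points, which are between -1 and 1.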

How the data were processed

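RNA of sorted CD4 T-cell fractions was hybridised to single-colour Agilent 4x180K arrays (array annotation mm9), 1 array per sorted pool. The deposited scanner files hold, per feature, a background-subtracted intensity from Agilent Feature Extraction 10.7.3.1 (submitters' processing notes), raw intensities and other columns of quality marks set by the authors' scanner software. The series matrix that the authors deposited holds intensities after quantile normalisation, with the 75th percentile set to 1500 and a floor of 20, and served as an alternative. The same steps were rebuilt here. The geometric mean of the processed intensity over the 4 features of each of 39429 probes was taken without marked outliers, features beyond 1.42 interquartile ranges or those whose pixels varied by a coefficient above 0.5 (13230 to 18920 of 157716 features per TFR array). A probe was detected when 3 of its 4 features were well above background. Tested were 22264 probes detected on both arrays of a group of 2, and a gene is its tested probe with the highest mean.

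A mean for each of 12 groups was fitted to all 20 arrays (limma 3.58.1 in R 4.3.3, lmFit and eBayes, 8 residual degrees of freedom), so the single d25 array is assumed to vary like the other groups. PP was compared with the mean of the 3 pLN arrays. P-values are two-sided limma values with Benjamini-Hochberg adjustment over all tested probes, and a call needs an adjusted p under 0.05 and a 2-fold change. The labels number no replicates, which are independent sorts per the labels, and replicate numbers follow accession order. Where neither array of a group (or none of 3) was well above background, a bound ("at least") was computed with each value raised to the lowest detected intensity of its array. A value already above that level was kept as measured. Probes can be undetected above it, so the bound is approximate. Named are the 12 genes per direction (clone names aside) with the largest called change that was kept without PP replicate 1 and whose PP and pLN arrays did not overlap, and called or role-bearing genes of 24 lists. The members and lists were chosen with earlier results of these data known. Symbols came from RefSeq by accession (27586 probes matched, 2044 renamed). Alternatives are given in the closing section. The number of arrays limits the precision. Some genes of the lists are counted but not reported here by name.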

Additional observations from a re-analysis of the deposited data

Results flagged for a closer look

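The tissue difference of TFR cells differed from that of Treg cells on 178 probes and from that of GL7+ TFH cells on 173 probes. The genes below are among those of the lists and the leading genes that these tests called, each with the TFR difference minus that of the other cell type on the log2 scale. No TFR group holds enough arrays for a test of single outlying arrays.

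Against Treg cells the difference was more positive in TFR cells for Ccdc120 (4.53), Ascl2 (4.01), Gpr153 (2.39), Vegfa (2.17) and Itgb8 (1.87). It was more negative for Cyp26b1 (-5.02), Il10 (-4.69), Dnah7a (-4.50), Havcr2 (-4.41), Lmna (-4.30), Cxcr3 (-4.02), Trpm6 (-3.89), Gzmb (-3.39), Rara (-1.88), Emp3 (-1.56), Rarg (-1.48) and Dhrs3 (-1.37). Of these, Cyp26b1 stayed called without slide 4.

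Against GL7+ TFH cells it was more positive for Art2a (6.37), Calca (4.36), Grtp1 (4.28), Ascl2 (4.12), Vdr (4.04), Gpr153 (3.45), Ltbr (3.38), Ccr9 (3.19), Il21 (2.98), Dhrs3 (2.40), Nrn1 (2.34), Vegfa (2.32), Egln3 (2.21), Itga5 (2.07), Il3 (2.02), Hif1a (1.88), Aldoc (1.86), Slc16a3 (1.81), Fosl2 (1.71) and Btla (1.24). Of these, Dhrs3 and Grtp1 stayed called without slide 4. Where a group lies at the floor, as for Vegfa, Ccdc120, Itga5, Itgb8, Ltbr, Grtp1, Trpm6, Il3, Cyp26b1 and Calca, the size of the difference depends on the floor. For Il3 the TFR tissue difference itself was 0. Its value comes from the TFH cells, at 20 and 20 on the PP arrays and 193.6, 139 and 20 on the pLN arrays.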

How the results depend on the processing

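Counts are probes called, against 2528 (PP against pLN), 2476 (pLN d12 alone), 1030 (pLN d25 alone), 178 (TFR minus Treg) and 173 (TFR minus TFH). With only the compared groups in the fit they were 784, 648, 0, 25 and 1 (1851 at an unadjusted limma p under 0.05 for the 0). Without the fold threshold the first was 4105. Slide as a random block gave 449 for d25, and as a fixed block 1079 and 674 for the differences between cell types. RNA input as a covariate gave 2303 for d25 and 695 and 452. Leaving out slide 4 gave 1675, 421 for d25, 28 and 66. A floor of 100 gave 349 and 289, and no filter on dim probes 307 for TFR minus Treg. Leaving out 1 array gave 1658 (without PP replicate 1) to 2476, 1309 (without pLN d12 replicate 1) to 2476, 454 (without PP replicate 1) to 831, 59 (without Treg PP replicate 1) to 186 and 46 (without TFH GL7+ PP replicate 2) to 206. The cause was not tested. The other counts, among them those under normexp background and 75th percentile scaling, were within 1.5 times.

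Of 151 called list and leading genes 0 reversed under 15 settings, 96 were called whichever TFR array was left out, and 43 under all settings. By setting, 71 stayed called with only the compared groups, 116 with slide as a random block, 103 without slide 4, 118 without PP replicate 1 and 113 without PP replicate 2. For PP against pLN, no paired analysis was possible because the labels carry no replicate numbers and no slide holds both tissues. The cell types of a tissue and day share slides, and the fixed block counts above are that paired fit. Levels under the detected range of an array are not resolved.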
